A study of Mus musculus with 4 samples.

Results

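ST2+ CD103- regulatory T cells (Tregs) of B16 melanoma were described from single-cell RNA and T cell receptor (TCR) libraries. They were selected on measured values. A cell was a member when it held at least 1 raw UMI (unique molecular identifier, a count of 1 captured RNA molecule) of Foxp3, of Cd4 and of Il1rl1, the gene of ST2, no UMI of Itgae, the gene of CD103, and fewer than 2 UMIs summed over the division genes Mki67 and Top2a. Of 20170 cells that passed the filters (600 or more genes seen, mitochondrial UMIs below 30%), 100 were members, 30 of 10224 cells in the WT library and 70 of 9946 in the VISTA-KO library. The comparison cells carried Foxp3 and Cd4, lacked Il1rl1 and Itgae and were likewise not dividing. There were 668 of them in WT and 591 in VISTA-KO, called ST2- CD103- cells here.

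The WT mice were Vsir fl/fl littermates without Cre, and the VISTA-KO mice were Vsir fl/fl with CD4-Cre, a driver active in developing thymocytes, so that CD4 and CD8 T cells alike are targeted. B16bl6 tumors of both genotypes were treated with a TRP2 peptide vaccine given with CpG and R848 on day 3 and with 100 µg of a CTLA-4 antibody (clone 9H10) on days 4 and 8. Tumor-infiltrating T cells were collected 18 days after the treatment, as a legend gives it, sorted as CD4+ and CD8+ cells together, and pooled within a genotype. The pool is given as 5 to 6 mice in one place of the methods and as 6 to 8 tumors in a legend. Each genotype thus had 1 pool, 1 gene expression library and 1 TCR library. A difference between genotypes had no replicate check, and genotype and library cannot be told apart.

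ST2 is the receptor chain for IL-33, an alarmin released by damaged barrier and stromal cells, and it signals with the accessory chain IL1RAP through MYD88 and NF-kB. Tregs of nonlymphoid tissues often carry ST2 together with the transcription factor GATA3 and the inhibitory lectin receptor KLRG1, and they secrete amphiregulin, the EGF-family ligand encoded by Areg, which acts on epithelial and stromal cells in repair. CD103 is the integrin chain that pairs with beta7 and binds E-cadherin on epithelium.

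The upstream windows of the gene that defines the cells and of its best known effector gene are shown because the results turn on their RNA. Shown are 2 RefSeq (GRCm38.p6) starts of Il1rl1 on the plus strand of chromosome 1 and 1 start of Areg on the plus strand of chromosome 5. The RefSeq span of Il1rl1 begins further upstream, at chr1:40404864, and no window before that position is shown. Upstream and downstream below tell apart only the 2 Il1rl1 starts shown. Each window holds the 250 bases before the start and lies at chr1:40429320-40429569, chr1:40439379-40439628 and chr5:91139349-91139598. Capitals mark matches of 2 motifs, searched on both strands. The letters AGATAA are one form of the core that GATA factors recognise, whose other forms were not searched, and TGACGTCA is the cAMP response element.
Il1rl1, upstream start: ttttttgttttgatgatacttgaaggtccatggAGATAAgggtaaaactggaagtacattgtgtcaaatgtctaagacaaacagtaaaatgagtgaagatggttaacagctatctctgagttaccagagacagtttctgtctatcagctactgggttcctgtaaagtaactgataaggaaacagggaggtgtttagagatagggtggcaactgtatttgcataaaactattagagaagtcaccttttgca
Il1rl1, downstream start: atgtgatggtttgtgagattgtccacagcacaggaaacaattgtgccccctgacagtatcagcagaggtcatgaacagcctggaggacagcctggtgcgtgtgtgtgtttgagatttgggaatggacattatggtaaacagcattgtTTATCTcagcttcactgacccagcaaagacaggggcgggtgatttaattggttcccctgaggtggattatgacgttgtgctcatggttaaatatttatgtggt
Areg: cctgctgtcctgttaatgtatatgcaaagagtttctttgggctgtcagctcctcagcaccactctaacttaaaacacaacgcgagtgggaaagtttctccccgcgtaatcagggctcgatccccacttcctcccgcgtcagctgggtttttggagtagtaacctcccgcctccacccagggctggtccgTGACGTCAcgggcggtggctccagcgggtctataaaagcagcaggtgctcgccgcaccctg
The letters AGATAA began 217 bases before the upstream Il1rl1 start and, on the opposite strand, 103 bases before the downstream start. The cAMP response element began 61 bases before the Areg start. Of 32851 RefSeq windows of the same length, 9.99% held AGATAA and 1.55% held TGACGTCA. The AP-1 letters TGANTCA, present in 6.75% of the windows, were in none of the windows shown. A match of letters describes the sequence and is no measurement of binding.

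The kept cells summed to 72016854 UMIs (WT) and 59817786 UMIs (VISTA-KO), of which the members held 326934 and 484685. The median member had 8812.5 UMIs and 2898 genes in WT, and 5840 UMIs and 2275.5 genes in VISTA-KO. ST2- CD103- cells had medians of 6430 and 5220 UMIs. WT members were therefore the deeper cells, and the shares of ST2+ CD103- cells and of cells with an Areg UMI are also given after thinning each cell to 2000 UMIs. The libraries had 145 cell barcodes in common. No barcode was a member in both, and 4 member barcodes occurred among the kept cells of the other library.

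The gene deleted by design was read first. Vsir, which encodes VISTA, was at 168 CPM in WT members (UMIs of the gene over all UMIs of the summed cells, scaled to a common total) and at 126 CPM in VISTA-KO members, a ratio of 0.748 with an exact 95% counting interval of 0.511 to 1.10. ST2- CD103- cells were at 128 CPM (WT) and 126 CPM (VISTA-KO). Vsir RNA was thus counted at similar levels in both libraries. The sources used here do not say which exons the Cre removes, and the counts are per gene, so these levels check neither label. WT and VISTA-KO below are the libraries' labels.

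Genes outside the rule that Tregs are known for were above their levels in conventional CD4 cells. Il2ra, the IL-2 receptor alpha chain, was at 229 and 215 CPM in WT and VISTA-KO members, Ctla4 at 1135 and 1221 CPM, Tnfrsf18 (GITR) at 881 and 1009 CPM, and Ikzf2 (Helios) at 413 and 512 CPM. In conventional CD4 cells Il2ra was at 18.7 and 26.5 CPM, Ctla4 at 235 and 241 CPM, Tnfrsf18 at 415 and 338 CPM, and Ikzf2 at 77.8 and 76.5 CPM. Activated T cells of other kinds are known to carry several of these genes too. The marker Areg was found in 14 of 30 WT and 39 of 70 VISTA-KO members. Foxp3, which the rule used, had a median of 5.5 UMIs per member in WT and 4 in VISTA-KO.

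The selection rested on few molecules. Of the WT members 21 had exactly 1 Il1rl1 UMI and 9 had 2. Of the VISTA-KO members 56 had 1, 9 had 2 and 5 had 3 or more, with a highest count of 5. Thus 77 of the 100 members were just inside the threshold. An Il1rl1 UMI was also found in 0.288% of WT and 0.431% of VISTA-KO CD8 T cells without Cd4 or Foxp3 UMIs (median 4760 and 5216 UMIs), in 2.15% and 2.09% of conventional CD4 cells, and in none of 141 and 101 plasmacytoid dendritic cells, which by exact binomial limits allows up to 2.58% and 3.59%. After thinning, the CD8 shares were 0.163% and 0.175%, and those of conventional CD4 cells 0.886% and 1.08%. Just outside the rule lay 15 WT and 27 VISTA-KO cells with a single Itgae UMI, and 3 and 6 cells with exactly 2 division UMIs. Cells with Cd4 and Il1rl1 but no Foxp3 UMI numbered 30 and 47. Areg in those cells was at 12.3 and 61.4 CPM, against 187 and 1306 CPM in members. Other cells just outside the rule were mixed. The 3 WT and 6 VISTA-KO cells with exactly 2 division UMIs had Areg at 0 and 924 CPM. Areg was at 317 and 941 CPM in the cells with a single Itgae UMI, and at 546 and 1220 CPM in the 21 and 23 cells with Foxp3 and Il1rl1 but no Cd4 UMI, so that in WT both were above the members.

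RNA of other cell types was present and unequal between the libraries. A Cd8a or Cd8b1 UMI was found in 14 of 30 WT members (46.7%, exact binomial interval 28.3 to 65.7) and 19 of 70 VISTA-KO members (27.1%, 17.2 to 39.1), against 42.1% and 25.7% of ST2- CD103- cells. More than 1 TCR beta chain was read in 2 WT and 10 VISTA-KO members. With either mark taken as a sign of a doublet, 15 WT and 22 VISTA-KO members carried one. No doublet caller was run. The 6 plasmacytoid dendritic cell markers summed to 801 and 47.5 CPM in WT and VISTA-KO members, against 355 and 250 CPM in ST2- CD103- cells. Irf8 was the most abundant of them at 391.5 and 45.4 CPM, none was at 0 in WT, and 4 of 6 were at 0 in VISTA-KO. Of 262 such UMIs in WT members, 242 lay in 4 cells with at least 10 each. VISTA-KO members had 23 such UMIs in all and no such cell.

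The 9 macrophage markers summed to 55.1 and 4.13 CPM in WT and VISTA-KO members, against 193 and 69.7 CPM in ST2- CD103- cells. Cd68 led in WT at 21.4 CPM and C1qc in VISTA-KO at 2.06 CPM, and 2 and 7 of 9 were at 0. The 8 CD8 T cell markers summed to 5750 and 4322 CPM in members and to 8008 and 5334 CPM in ST2- CD103- cells. Ccl5, which Tregs can also express, was the most abundant, and no gene of the list was at 0. All 8 mast cell and basophil markers were at 0 in members of both libraries. Natural killer and innate lymphoid markers had 6 of 7 genes at 0 in either library, among them Il5 and Il13. The summed levels were 12.2 and 30.9 CPM, all from Eomes. B cell markers had 3 of 4 at 0, with Cd79b at 18.4 and 26.8 CPM. Gamma-delta markers had 3 of 4 at 0 in WT, for a sum of 3.06 CPM, and all at 0 in VISTA-KO. The part of these RNAs in the results was not tested beyond leaving out the marked cells.

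The first comparison asked what share of non-dividing Tregs was ST2+ CD103-. The share was 2.70% in WT (30 of 1113 cells, exact Clopper-Pearson 95% interval 1.83 to 3.83) and 6.38% in VISTA-KO (70 of 1098, 5.003 to 7.99), a ratio of 2.37. These intervals, like all others here, cover counting error only. Thinned to 2000 UMIs, the shares were 2.24% (10 of 447) and 4.54% (23 of 507), a ratio of 2.03. With at least 2 Il1rl1 UMIs required they were 0.809% (9 cells) and 1.28% (14 cells), a ratio of 1.58 with overlapping intervals. The VISTA-KO share was the higher under every gate tried, and the intervals overlapped after either thinning and in the gate of 2 or more Il1rl1 UMIs.

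Among non-dividing Tregs, the other cells with ST2 were also more numerous in the VISTA-KO library. There were 46 ST2+ CD103+ cells in WT against 86 in VISTA-KO. CD103+ ST2- cells numbered 369 and 351. Dividing ST2+ CD103- cells, outside the rule, numbered 8 and 10. Dividing ST2+ CD103+ cells went the other way and were fewer in VISTA-KO, as were dividing Tregs of all kinds (415 and 172). With dividing Tregs added to the denominator, the ST2+ CD103- share was 1.96% and 5.51%. Without the cells that carried a doublet mark it was 2.63% and 6.50%.

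**Figure D1:**
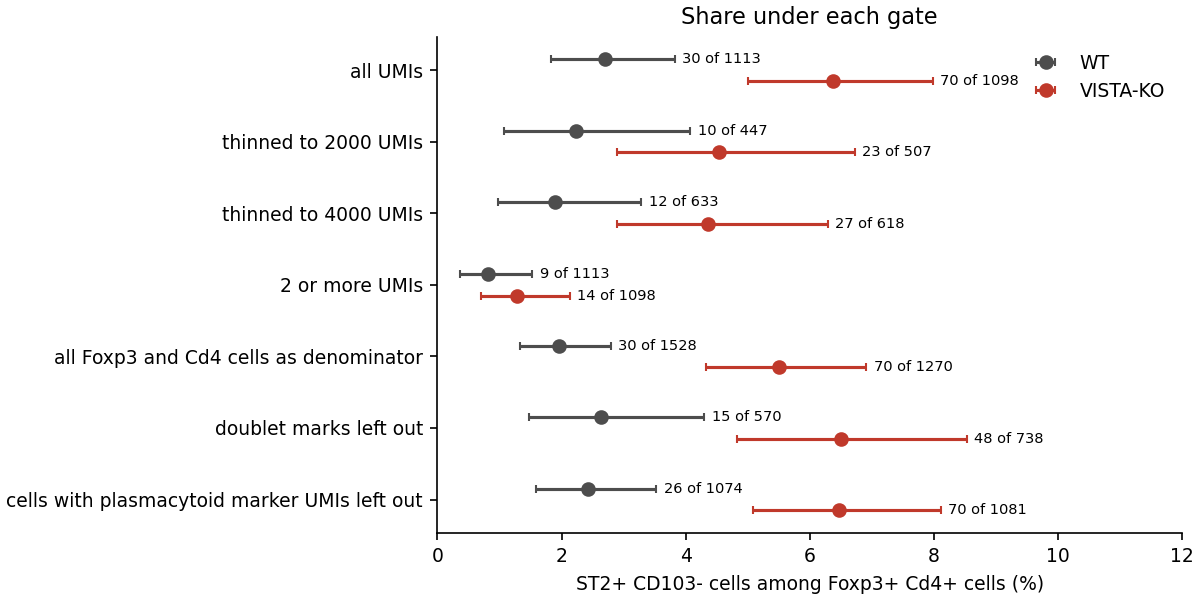
Share of ST2+ CD103- cells among Foxp3+ Cd4+ cells (x axis, percent) under each gate (y axis), WT in grey and VISTA-KO in red; points are shares of 1 library each, bars are exact 95% binomial intervals for counting error, and the cell numbers stand beside them. The VISTA-KO point lies right of the WT point in each gate, 6.38% against 2.70% with all UMIs, and the bars overlap for both thinned gates and for 2 or more UMIs.

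The second comparison set the members against ST2- CD103- cells within each library, to describe what ST2+ CD103- Tregs carry beyond the selecting genes. Areg was the higher in members in both libraries. It was at 187 CPM in WT members (counting interval 143 to 240) against 121 CPM in ST2- CD103- cells, and at 1306 CPM in VISTA-KO members (1206 to 1412) against 459 CPM. In ST2+ CD103+ cells it was at 490 and 929 CPM, and in CD103+ ST2- cells at 222 and 519 CPM. Over all cells, WT members were thus above ST2- CD103- cells and below ST2+ CD103+ cells, whereas VISTA-KO members had the highest level of the 4 groups. The WT level depended on the cells used. Among cells of 3000 to 10000 UMIs, WT members were at 452 CPM, against 150 CPM in ST2- CD103- and 281 CPM in CD103+ ST2- cells. Without doublet marks these 3 levels were 285, 168 and 352 CPM. With 2 or more Il1rl1 UMIs, WT members were at 131 CPM. An Areg UMI was found in 46.7% of WT members (exact binomial interval 28.3 to 65.7) and 55.7% of VISTA-KO members (43.3 to 67.6), and in 18.3% and 32.3% of ST2- CD103- cells. After thinning, the shares were 31.0% and 47.0% in members and 9.66% and 22.7% in ST2- CD103- cells. The background, read in CD8 T cells, was 1.02% and 2.13%, or 0.468% and 0.9502% after thinning.

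Areg was uneven among the members. The highest cell held 14 of the 61 UMIs in WT and 93 of the 633 UMIs in VISTA-KO, and the top 3 cells held 59.0% and 29.7%. An Areg UMI was read in 14 of the 30 WT and 39 of the 70 VISTA-KO members. Of the members with a Gata3 UMI (20 in WT and 41 in VISTA-KO), 8 and 20 also had an Areg UMI. All of Areg, Gata3 and Klrg1 were read in 3 WT and 13 VISTA-KO members, and none of them in 2 and 6. By Il1rl1 count, Areg was at 203 CPM with 1 UMI and 131 CPM with 2 in WT, and at 1239, 1266 and 2487 CPM with 1, 2 and 3 or more in VISTA-KO. These last groups hold 56, 9 and 5 cells and are given as a description.

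**Figure D2:**
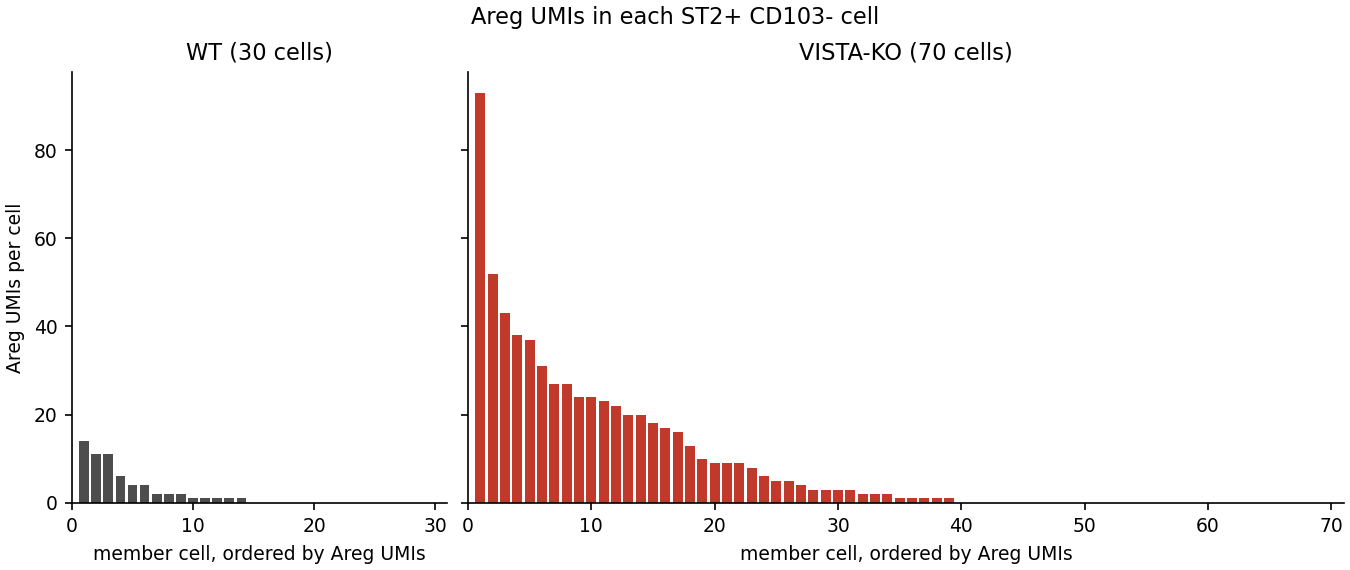
Areg UMIs (y axis, raw counts) in each ST2+ CD103- cell, ordered from the highest (x axis), for the 30 WT cells (grey) and the 70 VISTA-KO cells (red); each bar is 1 cell. Counts run from 14 down to 0 in WT and from 93 down to 0 in VISTA-KO, and 14 and 39 cells have any.

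UMIs were summed over the members and over the ST2- CD103- cells of each library, and edgeR's quasi-likelihood test with Benjamini-Hochberg adjustment was run on the 4 sums with library as a block. Of 9401 genes tested without the 6 selecting genes, 0 passed an adjusted p of 0.05 as higher in members and 0 as lower (0% and 0%). At an unadjusted p under 0.05, 224 were higher and 232 lower, and DESeq2 called 1 gene in each direction. The sums leave 1 residual degree of freedom, so the test leans on the spread shared across genes. Under 7 of the 11 alternative settings, edgeR made between 22 and 188 calls, and Areg was among them in each of the 7. Several of these settings had fewer cells but infinite prior degrees of freedom (8.52 in the main setting), so that all genes took the shared spread. The setting with 188 calls let dividing cells into the comparison group only, and others were added after seeing the data. These calls are therefore no independent support for Areg. The fitted difference of Areg was 1.21 on the log2 scale (SE 0.19, edgeR adjusted p = 0.147), and over the alternatives it ran from 1.12 to 1.72. Values below are therefore given without a verb of change. As a background for direction, 21.8% of the tested genes were higher in members in both libraries and 28.4% were lower in both, on log2(CPM + 5).

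Of the tissue Treg list (20 genes known from Tregs of nonlymphoid organs), 19 were tested. Of these, 10 were higher in members in both libraries and 3 lower in both, with a median fitted difference of 0.24 against -0.01 over all genes tested. The members and lists were chosen with results of these cells known, so the counts are no independent evidence. Gata3 was at 141 CPM in WT members against 89.5 CPM in ST2- CD103- cells, and at 165 against 116 CPM in VISTA-KO (fitted difference 0.59, SE 0.17, edgeR adjusted p = 0.696). Klrg1 was at 104 against 95.0 CPM in WT and at 221 against 136 CPM in VISTA-KO. Both genes were thus higher in members in either library, Klrg1 in WT by less than its counting interval of 72.0 to 145 CPM. With 2 or more Il1rl1 UMIs required of members, the fitted difference of Gata3 turned to -0.21. Rora, a nuclear receptor of tissue lymphocytes, was at 226 against 180 CPM and at 248 against 205 CPM. Batf, the AP-1 factor required by tissue Tregs, was at 193 against 168 CPM and at 213 against 163 CPM.

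Other tissue genes went opposite ways in the libraries, were read in few cells or were lower in members of both libraries. Pparg, the lipid-sensing nuclear receptor of adipose Tregs, was at 27.5 against 2.07 CPM in WT and at 8.25 against 3.50 CPM in VISTA-KO, from 9 UMIs in 6 cells and 4 UMIs in 3 cells. Il10, a suppressive cytokine, was at 6.12 against 17.0 CPM in WT and at 57.8 against 25.04 CPM in VISTA-KO, where 1 cell held 19 of 28 UMIs. Ccr8, the chemokine receptor of tumor Tregs, was the lower in members, at 226 against 321 CPM in WT and at 109 against 248 CPM in VISTA-KO (fitted difference -0.81, SE 0.18, edgeR adjusted p = 0.306).

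**Figure D3:**
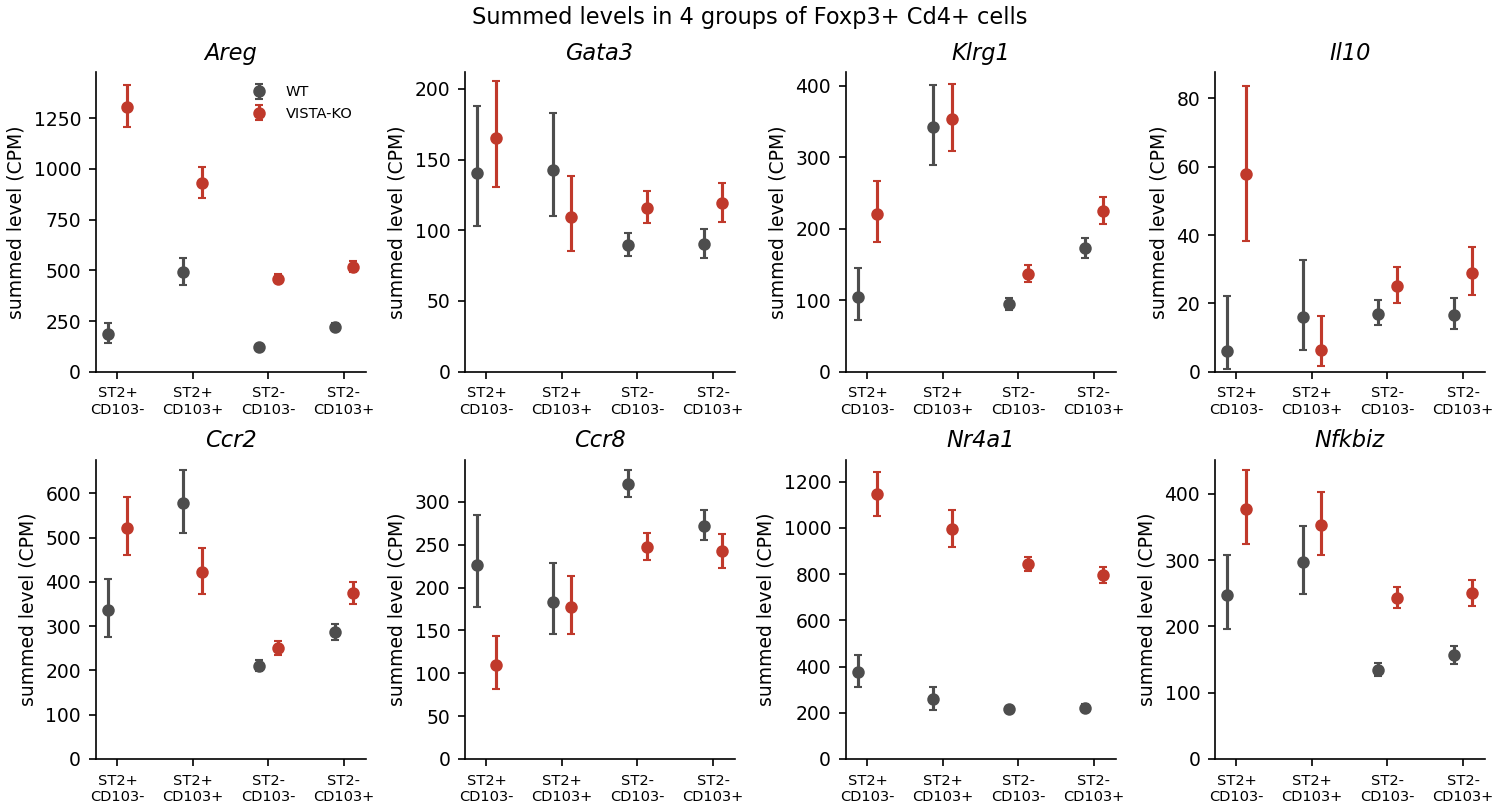
Summed levels (y axis, CPM from 0) of Areg, Gata3, Klrg1, Il10, Ccr2, Ccr8, Nr4a1 and Nfkbiz in the 4 groups of non-dividing Foxp3+ Cd4+ cells (x axis), WT in grey and VISTA-KO in red; each point is 1 sum per library and bars are exact 95% Poisson intervals for counting error. Areg reaches 1306 CPM in VISTA-KO ST2+ CD103- cells, above the other groups, while Ccr8 is lowest there at 109 CPM.

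The IL-33 ligand gene Il33 was at 0 UMIs in members of both libraries, which allows up to 9.18 (WT) and 6.19 CPM (VISTA-KO) at 3 counts. Of the IL-33 and IL-1 family list, 19 genes were tested, 7 were higher in members in both libraries and 2 lower, with a median of 0.07. The adaptor Myd88 was at 48.9 against 42.4 CPM in WT and at 47.5 against 39.6 CPM in VISTA-KO. The higher genes included targets and inhibitors of NF-kB. Nfkbia, which encodes the inhibitor IkB-alpha, was at 2034 against 1542 CPM in WT and at 3470 against 2270 CPM in VISTA-KO (fitted difference 0.52, SE 0.09, edgeR adjusted p = 0.177). Nfkbiz, encoding the nuclear inhibitor family protein IkB-zeta, was at 248 against 134 CPM and at 378 against 243 CPM (0.76, SE 0.14, edgeR adjusted p = 0.230). Il1r2, the decoy receptor for IL-1, went opposite ways, at 168 against 101 CPM in WT and at 2.06 against 54.7 CPM in VISTA-KO. It was read in 11 WT members and 1 VISTA-KO member.

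Among chemokine receptors, 5 of 14 tested were higher in members in both libraries and 3 lower, with a median of 0.11. Ccr2, the receptor for CCL2, was at 336 against 211 CPM in WT and at 522 against 250 CPM in VISTA-KO (fitted difference 0.90, SE 0.15, edgeR adjusted p = 0.147) and was read in 22 and 54 members. Ccr3, the eotaxin receptor, was at 21.4 against 6.60 CPM and at 76.3 against 26.9 CPM. Ccr4, a receptor of skin-homing and type 2 cells, was at 39.8 against 20.5 CPM and at 116 against 59.5 CPM. The lower ones besides Ccr8 were Cxcr3, a receptor of type 1 cells, at 245 against 420 CPM in WT and 349 against 420 CPM in VISTA-KO, and Ccr7.

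Of the immediate-early and TCR-induced list, 12 of 19 tested genes were higher in members in both libraries and 2 lower, with a median of 0.32. Nr4a1, an orphan nuclear receptor induced by TCR signals, was at 376 against 217 CPM in WT and at 1145 against 843 CPM in VISTA-KO (0.60, SE 0.12, edgeR adjusted p = 0.264). Nr4a3 of the same family was at 76.5 against 38.3 CPM and at 167 against 100 CPM. Egr1 lay the other way, at 91.8 against 159 CPM and at 241 against 338 CPM. In both libraries the members were thus the higher group for Nr4a1 and Nr4a3 and the lower one for Egr1. Nr4a2, also of the Nr4a family, went opposite ways, with ratios of members over ST2- CD103- cells of 2.15 in WT and 0.384 in VISTA-KO.

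**Figure D4:**
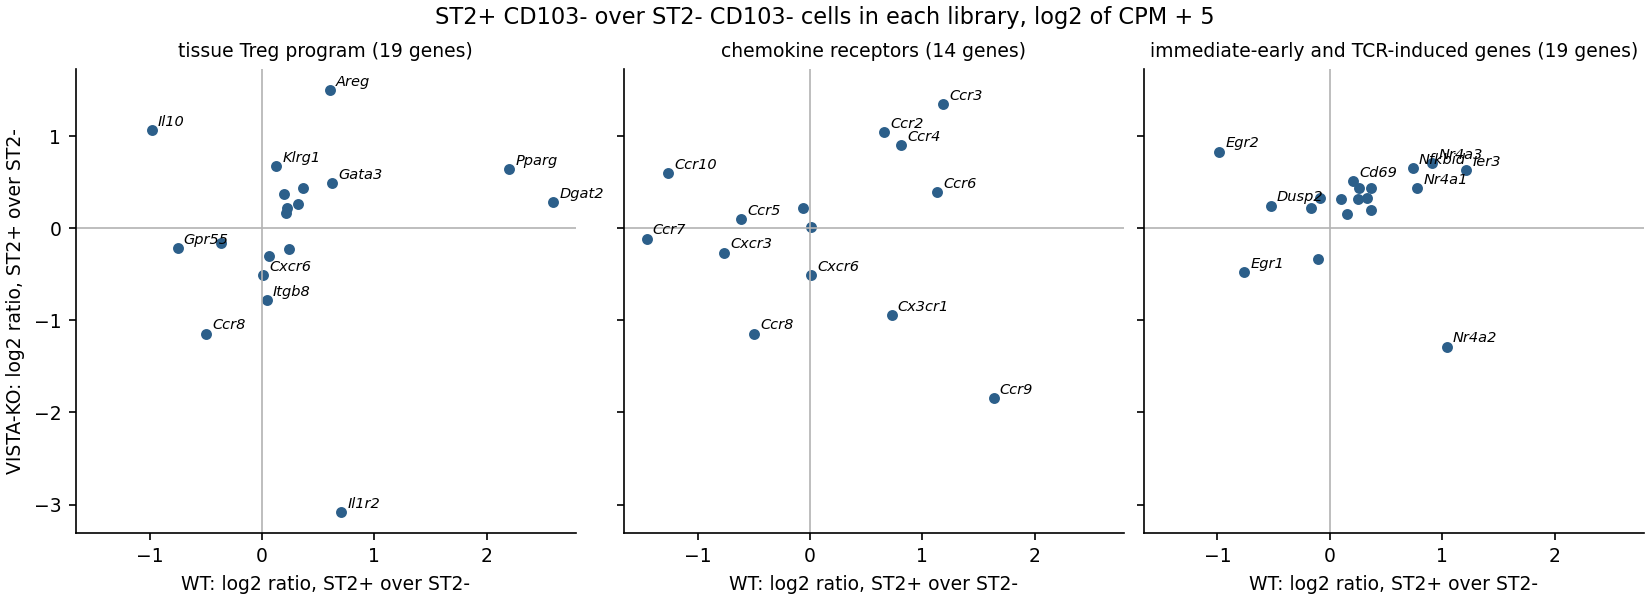
Log2 ratio of CPM + 5, ST2+ CD103- over ST2- CD103- cells, in the WT library (x axis) and in the VISTA-KO library (y axis) for the tissue Treg, chemokine receptor and immediate-early lists; each point is 1 gene and lines mark 0. Areg, Gata3, Ccr2, Ccr3, Ccr4, Nr4a1 and Nr4a3 lie above 0 on both axes, Ccr8, Cxcr3 and Egr1 below 0 on both, and Il10, Il1r2 and Nr4a2 on opposite sides.

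The Treg identity list had 4 of 11 tested genes higher in members in both libraries and 4 lower (median -0.10). The suppressive molecules had 5 and 6 of 17 (median -0.02). Within the latter Ctla4 was at 1135 against 865 CPM and 1221 against 1024 CPM, and Tigit, an inhibitory receptor for CD155, was at 388 against 655 CPM and 340 against 483 CPM. The TNF receptor list had 3 and 3 of 10 (median 0.04). The IL-2 and STAT5 list had 5 and 4 of 14 (median 0.11), with Il2ra at 229 against 103 CPM in WT and 215 against 174 CPM in VISTA-KO. These lists showed no common direction.

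The resting and lymphoid list had 6 and 2 of 12 (median 0.22). Il7r, the IL-7 receptor, was at 309 against 212 CPM and 274 against 164 CPM. The T helper list had 4 and 0 of 8 (median 0.47). Lipid handling had 3 and 2 of 8 (median 0.02), and EGF family and repair factors 1 and 3 of 7 (median -0.02), the 1 being Areg. Il5 and Il13 were at 0 UMIs in all members. S and G2/M genes had 1 and 7 of 14 (median -0.31), interferon-stimulated genes 0 and 2 of 13 (median -0.06), and heat shock genes 1 and 2 of 11 (median 0.05). All 6 macrophage markers tested were lower in members in both libraries (median -2.88), and of 6 plasmacytoid markers none kept a direction, with medians of 1.19 in WT and -1.91 in VISTA-KO. The MHC class II genes Cd74 and H2-Ab1, which macrophages express strongly, were also the lower in members of both libraries. Cd74 was at 875 against 1466 CPM in WT and 266 against 697 CPM in VISTA-KO (fitted difference -1.02, edgeR adjusted p = 0.0805). The part of other cells' RNA in these values was not tested.

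The third comparison set the same members against CD103+ ST2- Tregs, the other large group of non-dividing Tregs. It shares the members' sums with the comparison above. Of 8749 genes tested by edgeR, 11 were higher in members (0.126%) and 17 lower (0.194%) at an adjusted p of 0.05. By direction alone, 22.8% were higher and 29.2% lower in both libraries. Of the 28 calls 4 were TCR segments, Trbv20 as higher and Trbv12-1, Trdv4 and Trav12-3 among the lower. DESeq2 called 0 genes higher and 3 lower, all among the 28.

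The higher genes included Nr4a1, at 376 against 222 CPM in WT and 1145 against 795 CPM in VISTA-KO (fitted difference 0.65, SE 0.11, edgeR adjusted p = 0.0135), Gadd45b, a stress-induced gene, at 327 against 193 CPM and 563 against 404 CPM, and the growth regulator Myc at 128 against 45.8 CPM and 70.1 against 35.4 CPM. Hilpda, a lipid droplet protein induced by hypoxia, was at 202 against 79.8 CPM and 345 against 195 CPM. Itga4, the alpha4 integrin chain that pairs with beta1 or beta7, was at 193 against 124 CPM and 239 against 89.1 CPM. Pde2a, a cyclic nucleotide phosphodiesterase, was at 45.9 against 15.7 CPM and 84.6 against 32.5 CPM. These genes were read in between 8 and 58 members per library.

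The chemokine gene Ccl4 was at 1630 against 550 CPM in WT and 468 against 271 CPM in VISTA-KO, with a Ccl4 UMI in 10 and 12 members and up to 177 of 533 UMIs in a single cell. Serpinb6b, a granzyme inhibitor family gene, and Tnfsf8, encoding CD30 ligand, were also called, with 28 of 40 Serpinb6b UMIs in 1 WT cell and 15 of 23 Tnfsf8 UMIs in 1 VISTA-KO cell. Pparg was called from 9 and 4 UMIs against 1 and 1.

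The lower genes were MHC class II and interferon-induced membrane genes among others. Cd74 was at 875 against 1627 CPM in WT and 266 against 1081 CPM in VISTA-KO (fitted difference -1.38, SE 0.16, edgeR adjusted p = 0.000323). H2-Ab1 was at 58.1 against 226 CPM and 14.4 against 113 CPM, read in 3 and 5 members, and H2-Aa and H2-Eb1 were lower too. Of the Ifitm genes, which encode antiviral membrane proteins, Ifitm1 was at 0 UMIs in members against 52.7 and 34.6 CPM. Ifitm3 was at 36.7 against 83.8 CPM and 18.6 against 71.6 CPM, and Ifitm2 was also called, though among cells of 3000 to 10000 UMIs its fitted difference was 0.041. Cst3 (cystatin C), Tmem176b, Tff1, Chchd10, Tmem154, Pglyrp1 and AW112010 completed the lower calls. Macrophage markers summed to 56.4 and 35.0 CPM in CD103+ ST2- cells, and plasmacytoid markers to 394 and 218 CPM. With cells rich in plasmacytoid markers left out, 26 of the 28 calls remained. Of the same 28, 15 remained without the cells with a doublet mark, 11 among cells of 3000 to 10000 UMIs, and 8 where 2 or more Il1rl1 UMIs were required of members and 2 or more Itgae UMIs of CD103+ cells.

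Areg did not pass in this comparison. It was at 187 against 222 CPM in WT and 1306 against 519 CPM in VISTA-KO (fitted difference 0.79, SE 0.22, edgeR adjusted p = 0.251). The VISTA-KO members were thus the higher group. The WT members were the lower over all cells, but the counting interval of their ratio (0.840, 0.636 to 1.09) included 1. Among cells of 3000 to 10000 UMIs the WT members were the higher, at 452 against 281 CPM. They were also higher without plasmacytoid-rich cells, at 250 against 233 CPM. Without doublet marks and with 2 or more UMIs they stayed lower, at 285 against 352 and 131 against 247 CPM. Gata3 was at 141 against 90.1 CPM and 165 against 119 CPM (edgeR adjusted p = 0.359), and Klrg1 at 104 against 173 CPM and 221 against 225 CPM. Of the tissue Treg list 1 of 19 tested genes, Pparg, was called higher and 0 lower. The immediate-early list had 1 of 18, Nr4a1. The 28 calls rest on thin data: no clonotype had more than 1 member, and leaving out 1 of these tied clonotypes in each library (4 cells in WT and 1 in VISTA-KO, 1 of them a member in each) left 2 of the calls. Leaving out the member clonotype with the most cells in its library (28 in WT and 10 in VISTA-KO, again 1 member each) left 27, and a fit without the library block left 0.

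The fourth comparison set VISTA-KO over WT members, with 1 library each and no test. Among 6621 genes with at least 20 CPM in either library, 1076 (16.3%) were past 0.5 on the log2(CPM + 5) scale as higher in VISTA-KO and 1297 (19.6%) as lower. The larger side depended on the scaling, with 1309 higher and 1131 lower on TMM-scaled CPM and a median over all genes of 0.04 in place of -0.04. Areg was at 1306 CPM in VISTA-KO against 187 CPM in WT, a ratio of 7.0 with a counting interval of 5.38 to 9.26. The ratio in ST2- CD103- cells was 3.796 and in CD103+ ST2- cells 2.34. Areg was thus the higher in VISTA-KO in each of these 3 Treg groups. The difference between the groups' ratios was not tested across libraries. The members' interval lay above both other values over all cells but not in a narrower range of depth. Among cells of 3000 to 10000 UMIs the ratio was 3.61 in members (2.59 to 5.17), 3.10 in ST2- CD103- cells and 2.19 in CD103+ ST2- cells. Without the cells rich in plasmacytoid markers the ratios were 5.23, 3.42 and 2.12. Without doublet marks they were 6.38, 3.35 and 1.64. With 2 or more Il1rl1 UMIs the members' ratio was 12.3 (6.49 to 26.2), from 9 and 14 cells.

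By number of genes, the immediate-early list had the most past the threshold. By share of the genes tested, other lists were as high or higher. Plasmacytoid markers had 0 higher and 6 lower of 6, CD8 T cell markers 1 and 6 of 8, and chemokine receptors 6 and 4 of 12. Of the 18 immediate-early genes 13 were higher and 2 lower in VISTA-KO members, with a median of 0.77 against -0.04 over all genes. The same list had medians of 0.74 in ST2- CD103- cells and 0.56 in CD103+ ST2- cells, so the shift was not particular to the members. Nr4a1 was at 1145 against 376 CPM (ratio 3.04, 2.50 to 3.73), with ratios of 3.88 and 3.58 in the other 2 groups. Junb, an AP-1 subunit, had ratios of 2.36, 2.37 and 1.96 in members, ST2- CD103- and CD103+ ST2- cells. In the members without a doublet mark, the Nr4a1 log2 ratio was 1.24 in place of 1.59, and in those with at least 2 Il1rl1 UMIs 0.13.

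The tissue Treg list had 4 genes higher and 8 lower of 19, with a median of -0.13. Gata3 was at 165 against 141 CPM (ratio 1.17, 0.806 to 1.72), within counting error. Ccr2 was at 522 against 336 CPM (1.55, 1.24 to 1.96). Klrg1 was at 221 against 104 CPM (2.12, 1.43 to 3.22), but without the members that carried a doublet mark its log2 ratio was -0.02, and among cells of 3000 to 10000 UMIs -0.06. Ccr8 was the lower in VISTA-KO, at 109 against 226 CPM (0.483, 0.333 to 0.697), with ratios of 0.771 and 0.891 in ST2- CD103- and CD103+ ST2- cells. Lipid handling genes had 0 higher and 4 lower of 7 (median -0.71).

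Several of the most extreme ratios came from 1 or a few cells. Tgif1, a repressor of TGF-beta signaling, was at 281 against 55.1 CPM and was read in 51 VISTA-KO and 10 WT members, and its ratio of 5.10 stood beside 2.36 and 2.63 in the other groups. By contrast Ccl1 had 59 of 60 UMIs in 1 VISTA-KO cell, Csf2 had 24 of 25 and Crtam 25 of 28, and Xcl1, with 168 of 177 UMIs in 1 cell, turned from 2.36 to -0.84 on the log2 scale without the top cell of each library. Actg2 (29 UMIs in 9 cells), Senp7 (30 in 22) and Xylt1 (28 in 17) were spread over more VISTA-KO members. Of the lowest ratios, Siglech, Tcf4, Ccr9, Ly6d, Pld4, Ctsh and Plaur were at 0 UMIs in VISTA-KO members and were read in 2 to 5 WT members. Tyrobp had 112 UMIs in 4 WT members and 1 UMI in VISTA-KO, and H2-Aa had 59 of 63 WT UMIs in 1 cell and 2 UMIs in VISTA-KO. Il1r2 was spread over more WT members, with 55 UMIs over 11 of them and 1 UMI in VISTA-KO.

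**Figure D5:**
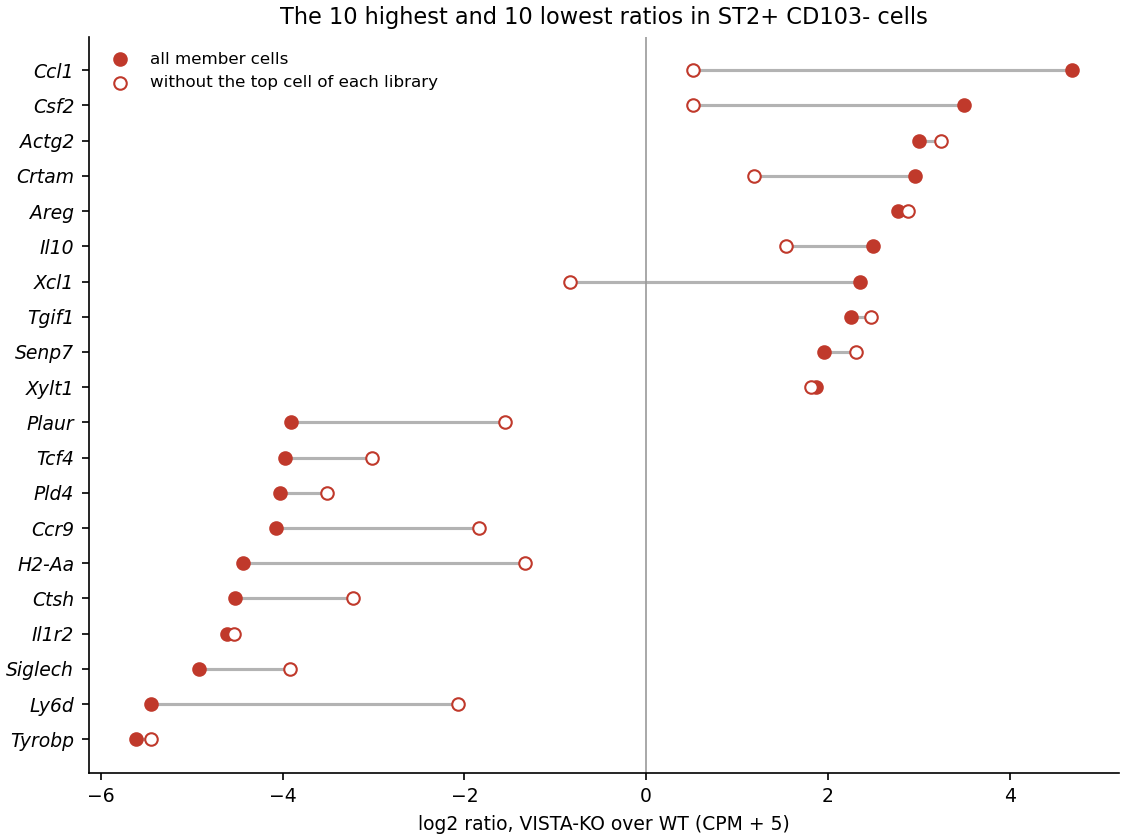
Log2 ratio of CPM + 5, VISTA-KO over WT (x axis), for the 10 highest and 10 lowest genes with at least 50 CPM in either library (y axis), in ST2+ CD103- cells; filled points use all cells and open points leave out the cell with the most UMIs of that gene in each library. Areg, Tgif1 and Il1r2 hardly move, Ccl1, Csf2, Ly6d and H2-Aa move towards 0, and Xcl1 crosses from 2.36 to -0.84.

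The last comparison used TCR sequences, which the selection did not use. A clonotype, defined here by V gene and CDR3 nucleotides of the leading alpha and beta chains, was read in 16 of 30 WT members (53.3%, exact binomial interval 34.3 to 71.7) and 51 of 70 VISTA-KO members (72.9%, 60.9 to 82.8). All 16 and all 51 were different from each other, so no clonotype was repeated within the members. In ST2- CD103- cells, 37.4% (WT) and 13.5% (VISTA-KO) of cells shared a clonotype with another cell of that group, among 385 and 437 cells with a clonotype. The groups are of unequal size, and repeats grow with the number of cells.

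A comparison that does not depend on group size in this way is the share of cells whose clonotype was held by another cell anywhere in the library. It was 37.5% of WT members (6 of 16, exact binomial interval 15.2 to 64.6) and 19.6% of VISTA-KO members (10 of 51, 9.82 to 33.1), against 50.6% and 27.9% of ST2- CD103- cells and 44.5% and 24.5% of CD103+ ST2- cells. The members' intervals included the values of both other groups. Of the members, 5 in WT and 2 in VISTA-KO shared a clonotype with ST2- CD103- cells, 3 and 3 with CD103+ ST2- cells, and 0 and 0 with ST2+ CD103+ cells. In WT, 37.5% of members and 33.8% of ST2- CD103- cells had a match in another Treg group, and in VISTA-KO 9.80% and 11.7%. These last shares do depend on group size, since a member could match 755 cells of other Treg groups in WT and 870 in VISTA-KO, and an ST2- CD103- cell 386 and 484. No member clonotype was found in the other library.

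The CDR3 junctions of the 3 largest member clonotypes of each library are shown, since they are among the links between the members and other cells. Further member clonotypes with other cells are not shown. Lower case marks coding sequence as assembled, alpha chain before beta chain.
WT TRAV8-1: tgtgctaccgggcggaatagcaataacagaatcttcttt
WT TRBV3: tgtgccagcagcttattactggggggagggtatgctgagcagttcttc
WT TRAV6-2: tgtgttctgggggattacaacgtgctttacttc
WT TRBV12-2+TRBV13-2: tgtgccagcgaggaagttgaacagtacttc
WT TRAV13-1: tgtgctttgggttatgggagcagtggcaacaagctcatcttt
WT TRBV5: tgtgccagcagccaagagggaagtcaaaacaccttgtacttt
VISTA-KO TRAV14N-3: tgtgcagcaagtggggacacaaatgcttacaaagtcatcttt
VISTA-KO TRBV31: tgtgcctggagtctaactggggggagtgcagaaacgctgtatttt
VISTA-KO TRAV12-2: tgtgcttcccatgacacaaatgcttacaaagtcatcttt
VISTA-KO TRBV16: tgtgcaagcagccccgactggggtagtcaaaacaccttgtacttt
VISTA-KO TRAV5-4: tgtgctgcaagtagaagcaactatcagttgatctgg
VISTA-KO TRBV12-2: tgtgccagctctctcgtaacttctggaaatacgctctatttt
The WT clonotype of TRAV8-1 and TRBV3 had 28 cells, of which 1 was a member, 10 were ST2- CD103-, 3 CD103+ ST2- and 3 dividing Tregs. That of TRAV6-2 had 15 cells, 8 of them ST2- CD103- and 4 conventional CD4 cells. That of TRAV13-1 and TRBV5 had 11 cells, 7 of them ST2- CD103-, and its member held 11 Areg UMIs. In each of these WT clonotypes ST2- CD103- Tregs were the most frequent of the other named groups.

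In VISTA-KO, the clonotype of TRAV14N-3 and TRBV31 had 10 cells, 8 of them CD8 T cells, and its member held 26 Cd8a or Cd8b1 UMIs and 2 beta chains. That of TRAV12-2 and TRBV16 had 8 cells, 7 of them CD8 T cells, and its member held 12 such UMIs and 2 beta chains. The clonotype of TRAV5-4 and TRBV12-2 had 6 cells, and its member held no Cd8 UMI and 13 Areg UMIs. Its 5 other cells were in none of the named groups. The first pair of VISTA-KO members therefore carried both doublet marks.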

How the data were processed

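Single-cell gene expression and TCR libraries of 1 pool per genotype were used. The authors made the deposited counts (raw UMIs of each gene in each cell) with Cell Ranger 5.0.0 (GRCm38) and analysed them with Seurat 4; the deposited TCR table of contigs holds read and UMI counts per chain. The labels name a 3′ kit in their protocol and 5′ libraries in their descriptions, and the study's methods name a V(D)J kit. Cells were kept with at least 600 genes and under 30% mitochondrial UMIs. Counts were summed per library and cell group. CPM, log2(CPM + 5) and exact intervals were computed in Python 3.11.15 (scipy 1.17.1). The fits used edgeR 4.0.16 (filterByExpr, library as a block, with DESeq2 1.42.0 as an alternative) in R 4.3.3. The edgeR code was also run on simulated sums for the ST2- CD103- comparison only. The simulation gave all genes a common spread and had no library effect, unlike the data, so it does not bear on the calls made here. Cells were thinned once with a fixed seed. No doublet caller was run; Cd8 UMIs or more than 1 beta chain served as marks. The members and lists were chosen with earlier results of these data known. Named were list genes, for each pair of groups up to 12 called genes in each direction with at least 20 CPM, 10 extreme VISTA-KO over WT ratios in each direction with at least 50 CPM, Vsir and the 3 largest clonotypes; Pparg, Pglyrp1, AW112010 and the TCR segments among the calls were named to complete the list of 28. CD8 reference cells held Cd8a or Cd8b1 but neither Cd4 nor Foxp3. Plasmacytoid reference cells had at least 2 Siglech UMIs and no Foxp3 or Cd3e UMI. Conventional CD4 cells had Cd4 and Cd3e UMIs and no Foxp3, Cd8 or Siglech UMI. Total UMIs and shares carry counting error only, since each genotype had 1 library.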

Additional observations from a re-analysis of the deposited data

Results flagged for a closer look

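The list genes whose ratios are given below were picked by a rule from all list genes. Their ratios of ST2+ CD103- over ST2- CD103- cells lay on opposite sides of 1 in the WT and VISTA-KO libraries. The counting intervals excluded 1 on both sides and the ratios were past 0.5 on the log2 scale each way. The rule also required UMIs in the ST2- CD103- cells of both libraries. How many genes met it is not read as a result about the members. Dusp1, Dusp2 and Hsp90ab1 met the intervals but not the size in both libraries, and Il17a, at 0 UMIs in WT ST2- CD103- cells, had no finite ratio. The difference between the libraries was not tested. The plasmacytoid markers Ccr9, Cox6a2, Irf8, Siglech and Tcf4 had WT ratios of 3.58, 1.78, 2.22, 2.50 and 2.63, against 0, 0.0995, 0.293, 0 and 0 in VISTA-KO. Without the cell richest in each gene, the WT ratios of Ccr9 and Cox6a2 were 0.578 and 0.535, and those of Irf8, Siglech and Tcf4 were 1.61, 1.20 and 1.27.

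Il1r2 had ratios of 1.66 in WT and 0.0378 in VISTA-KO (1.10 and 0 without the top cell). Nr4a2 had 2.15 and 0.384 (1.45 and 0.316), and Ifng 1.61 and 0.653 (1.23 and 0.578). These 3 genes kept their directions without the richest cell, as did Irf8, Siglech and Tcf4. No counting interval was computed after leaving out that cell, so WT ratios near 1, such as 1.10 for Il1r2, are not shown to differ from 1. Hspa1a had 1.47 and 0.354, and Ifit3 1.76 and 0.373, and without the richest cell the WT ratios were 0.863 and 0.927. Gzma had 0.284 in WT and 1.51 in VISTA-KO, where it was 0.284 without the richest cell. Csf2 was at 0 in WT members, a ratio of 0, and had 27.4 in VISTA-KO, or 1.14 without 1 cell.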

How the results depend on the processing

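Members against ST2- CD103- cells gave 0 calls in each direction in the main setting. Higher and lower calls were 1 and 1 with DESeq2, 42 and 39 without a low-count filter, 26 and 22 among cells of 3000 to 10000 UMIs, 10 and 12 with 2 or more Il1rl1 UMIs, 34 and 31 without doublet marks, 67 and 121 with dividing comparison cells, 2 and 1 without 1 clonotype of each library tied at 1 member, 42 and 37 without the member clonotype with most cells in its library, and 50 and 31 without cells rich in plasmacytoid markers, the last 2 settings having been added after seeing the data. The prior degrees of freedom of edgeR, 8.52 in the main setting, were 93.7 without the clonotype with most cells and infinite without a filter, in the depth window, with 2 or more UMIs and without doublet marks.

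Against CD103+ ST2- cells (11 and 17 in the main setting) higher calls were 0 with DESeq2, without a library term and without a tied clonotype, 31 without the clonotype with most cells, 36 without a filter, 30 in the depth window, 7 with 2 or more Il1rl1 and Itgae UMIs, 47 without doublet marks, 27 with dividing cells and 45 without plasmacytoid-rich cells. Lower calls were 3 with DESeq2, 48 without a filter, 25 in the depth window, 12 with 2 or more UMIs, 24 without doublet marks, 50 with dividing cells, 0 without a library term, 2 without a tied clonotype, 32 without the clonotype with most cells and 46 without plasmacytoid-rich cells. No low-count filter and 2 or more UMIs moved the median of all genes to -0.17 and -0.18 against ST2- CD103- cells.

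Genes past 0.5 as higher in VISTA-KO numbered 482 at 50 CPM, 1775 in the depth window, 1706 without doublet marks and 2704 with 2 or more UMIs, and as lower 557, 2041, 2096 and 2245, and 848 with a pseudocount of 20. The WT share of ST2+ CD103- cells among Tregs moved to 0.809% with 2 or more UMIs. The VISTA-KO share of these cells moved to 4.54% and 4.37% thinned and 1.28% with 2 or more UMIs. Directions turned for Gata3 (-0.21) and Il10 (-0.37) against ST2- CD103- cells with 2 or more UMIs, for Ifitm2 against CD103+ ST2- cells in the depth window (0.041), and for VISTA-KO over WT of Xcl1 (-2.76 in the depth window, -3.39 without doublet marks, -4.77 with 2 or more UMIs) and Klrg1 (-0.063 and -0.022 in the first and second of these). The share of members with a clonotype match in another Treg group stayed within its main interval. Within WT, the direction of Areg against CD103+ ST2- cells also turned in the depth window and without plasmacytoid-rich cells. The causes were not tested. Between the genotypes, no paired analysis was possible because each had 1 library, and the comparisons of cell groups had library as a block.

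With 30 and 70 cells, 1 library each and 1 Il1rl1 UMI in 77 of 100 members, low genes and single cells limit every value.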
